A study of Homo sapiens with 24 samples.

Results

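The regions described here are the 254 SNF5 peaks that shared no base with any BRG1 peak, out of 6489 SNF5 peaks in prostate epithelial cells made to produce SCHLAP1. They were chosen by overlap of the deposited peak lists with a minimum of 1 bp, whether or not a BRM peak lay on them. They are 3.91% (95% interval 3.46 to 4.42%) of the SNF5 list and, together, cover 48813 bp. The absence of BRG1 is therefore the rule itself and not a result, and the distance to BRG1 is a description. All 3 lists hold 80150 peaks, of which 51504 are BRG1 and 22157 BRM.

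The series asked where the SWI/SNF complex lies on chromatin when SCHLAP1 is produced, a noncoding transcript known from aggressive prostate cancer. The cells were RWPE1, an immortalised line derived from normal human prostate epithelium, infected with a lentivirus carrying SCHLAP1 or the control gene LACZ and selected with 2.5 ug/mL blasticidin. SNF5, BRG1 and BRM were precipitated after MNase digestion from SCHLAP1-producing cells only, with 2 samples for each subunit among 24 samples in 12 groups. Each subunit has 1 deposited list of filtered positions in hg38, so there is no spread between samples, no depth and no p-value for any value below. All groups used here share the SCHLAP1 construct, the drug selection and the fixation, and no SNF5 peaks of LACZ cells were analysed here, so none of the values bears on an effect of SCHLAP1. Of the fixed basal markers of prostate epithelium, KRT5 was named as nearest gene by 4 BRG1, 6 BRM and 1 SNF5 peaks, KRT14 by 7, 3 and 0, TP63 by 12, 0 and 0, and ITGA6 by 0, 1 and 0. None of the 254 regions was named for one of these markers.

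SNF5 (SMARCB1) is a core subunit of the SWI/SNF complexes BAF and PBAF, which move nucleosomes with the energy of ATP. Each complex carries 1 of the alternative ATPases, BRG1 (SMARCA4) or BRM (SMARCA2), so a complex with SNF5 is thought to hold an ATPase wherever it sits. A site in the SNF5 list and not in the BRG1 list is a site without a called and kept BRG1 peak, and is not shown to lack the protein.

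Sequence could be read only at promoters, so it stands for a small share of these regions. Of the 254 peaks, 19 met 20 of the 35116 RefSeq promoter windows (250 bases before to 50 after a transcript start), and the 6 shown are those with the most bases of a window under the peak, 3 with and 3 without a BRM peak on them. The 250 bases before each start are printed 5′ to 3′ along the gene, from RefSeq with build GRCh38.p14, and capitals mark the bases covered by the SNF5 peak. With BRM these are the promoters of ULK1 (chr12:131894372-131894621, plus strand), a kinase that starts autophagy, FOSB (chr19:45467746-45467995, plus strand), a subunit of the AP-1 transcription factor, and ARHGDIA (chr17:81871338-81871587, minus strand). Without BRM these are the promoters of CDK11A (chr1:1724358-1724607, minus strand), a cyclin-dependent kinase, MBD3 (chr19:1592866-1593115, minus strand), a subunit of the NuRD remodelling complex, and CNKSR1 (chr1:26177241-26177490, plus strand), a scaffold of Ras signalling.
ULK1: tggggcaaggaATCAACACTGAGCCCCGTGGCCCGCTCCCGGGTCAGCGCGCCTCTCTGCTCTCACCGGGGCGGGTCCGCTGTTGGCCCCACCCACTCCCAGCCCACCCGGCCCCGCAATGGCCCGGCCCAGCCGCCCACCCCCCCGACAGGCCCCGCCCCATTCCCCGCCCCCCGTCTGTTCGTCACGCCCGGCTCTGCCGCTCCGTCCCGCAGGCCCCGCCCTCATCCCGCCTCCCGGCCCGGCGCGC
FOSB: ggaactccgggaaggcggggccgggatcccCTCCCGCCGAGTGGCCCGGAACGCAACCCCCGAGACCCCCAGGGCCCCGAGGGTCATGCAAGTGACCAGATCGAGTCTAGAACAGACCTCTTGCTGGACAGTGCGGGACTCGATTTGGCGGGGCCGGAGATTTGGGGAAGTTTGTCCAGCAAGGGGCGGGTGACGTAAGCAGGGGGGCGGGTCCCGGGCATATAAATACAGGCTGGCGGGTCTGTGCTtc
ARHGDIA: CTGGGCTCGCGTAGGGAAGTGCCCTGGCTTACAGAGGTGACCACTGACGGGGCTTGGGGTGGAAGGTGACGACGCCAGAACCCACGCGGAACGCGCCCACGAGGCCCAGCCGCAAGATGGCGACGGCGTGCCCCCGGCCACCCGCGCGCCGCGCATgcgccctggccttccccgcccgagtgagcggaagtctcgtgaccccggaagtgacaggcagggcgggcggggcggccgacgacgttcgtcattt
CDK11A: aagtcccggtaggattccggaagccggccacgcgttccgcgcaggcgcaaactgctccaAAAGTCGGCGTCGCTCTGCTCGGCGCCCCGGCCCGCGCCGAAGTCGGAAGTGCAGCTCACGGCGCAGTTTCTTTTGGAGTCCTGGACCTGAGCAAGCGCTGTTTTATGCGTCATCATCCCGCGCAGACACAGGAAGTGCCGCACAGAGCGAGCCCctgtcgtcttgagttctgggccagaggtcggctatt
MBD3: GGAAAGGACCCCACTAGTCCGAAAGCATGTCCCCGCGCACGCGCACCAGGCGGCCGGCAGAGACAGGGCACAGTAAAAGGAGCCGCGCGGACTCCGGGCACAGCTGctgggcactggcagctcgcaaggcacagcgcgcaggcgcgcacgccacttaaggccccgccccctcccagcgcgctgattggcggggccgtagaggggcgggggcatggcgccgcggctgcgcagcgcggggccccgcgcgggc
CNKSR1: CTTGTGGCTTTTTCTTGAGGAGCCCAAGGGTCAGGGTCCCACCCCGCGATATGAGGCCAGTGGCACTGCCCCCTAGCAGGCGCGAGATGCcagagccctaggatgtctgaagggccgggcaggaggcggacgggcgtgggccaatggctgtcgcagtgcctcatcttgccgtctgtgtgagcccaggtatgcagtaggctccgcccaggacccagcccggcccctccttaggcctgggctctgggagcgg

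In the ULK1 and FOSB promoters the SNF5 peak filled most of the stretch before the start, with 239 and 218 covered bases, and the nearest BRG1 peaks lay 541 and 93 bp away. In the CNKSR1 promoter it covered the far end (90 bases), and a BRG1 peak began 57 bp from it. The CDK11A promoter, whose peak is named for the neighbouring AL031282.1, stood alone: its nearest BRG1 peak was 16219 bp and its nearest BRM peak 34333 bp away. The 6 stretches held between 13 (CNKSR1) and 33 (ARHGDIA) CpG dinucleotides. The GC box GGGCGG stood in all of them except that of CDK11A. It lay under the SNF5 peak in ULK1 and FOSB, but outside the peak in ARHGDIA, MBD3 and CNKSR1. The ETS core CCGGAAG stood in the stretches of CDK11A and ARHGDIA, in both outside the peak. TATAAA stood in that of FOSB, under the peak. A motif here is an exact match on either strand, which describes the letters and shows no bound factor.

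Over whole windows, the 20 under these peaks resembled those under SNF5 peaks that met BRG1. GGGCGG stood in 16 of them (95% interval 56.3 to 94.3%), in 77.1% of 3504 windows under SNF5 peaks with BRG1 and in 44.9% of all promoters. CCGGAAG stood in 5 of the 20, in 24.5% and in 10.2% in the same order. Median GC content was 63.7, 67.3 and 58.7%. TATAAA was found in 3 of the 20 windows (15.0%, 3.21 to 37.9%) against 4.14% of windows with BRG1 and 11.6% of all. With 20 windows such intervals are wide. TGACTCA (AP-1), TGACGTCA (CRE), CACGTG (E-box), GCATTCC (TEAD) and the ZNF143 motif were in none of the 20, which at this number allows a share of up to 16.8% by the exact interval.

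Most of the regions lay close to a BRG1 peak without touching it. The median distance to the nearest BRG1 peak was 2236 bp (95% interval 1345 to 3733 bp, quartiles 311 and 12589 bp), where a distance of 1 means end to end. Within 100 bp of BRG1 lay 30 regions (11.8%), within 1 kb 102 (40.2%, 34.1 to 46.5%), within 10 kb 176 (69.3%) and within 100 kb 234 (92.1%). The distance was taken over 253 regions, since the region named for CTBP2P1 lay on the Y chromosome, where neither BRG1 nor BRM had a peak. The nearest BRM peak lay at a median of 1491 bp (832 to 2929 bp), counting as 0 the 64 regions that met BRM, which the rule does not allow for BRG1. Among the 190 regions that met neither, the medians were 3477 bp to BRG1 (2151 to 7407 bp) and 6019 bp to BRM (3635 to 10295 bp). The nearest BRG1 peaks had a median width of 633 bp, against 667 bp over the BRG1 list, and 123 of them were at promoters.

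**Figure D1:**
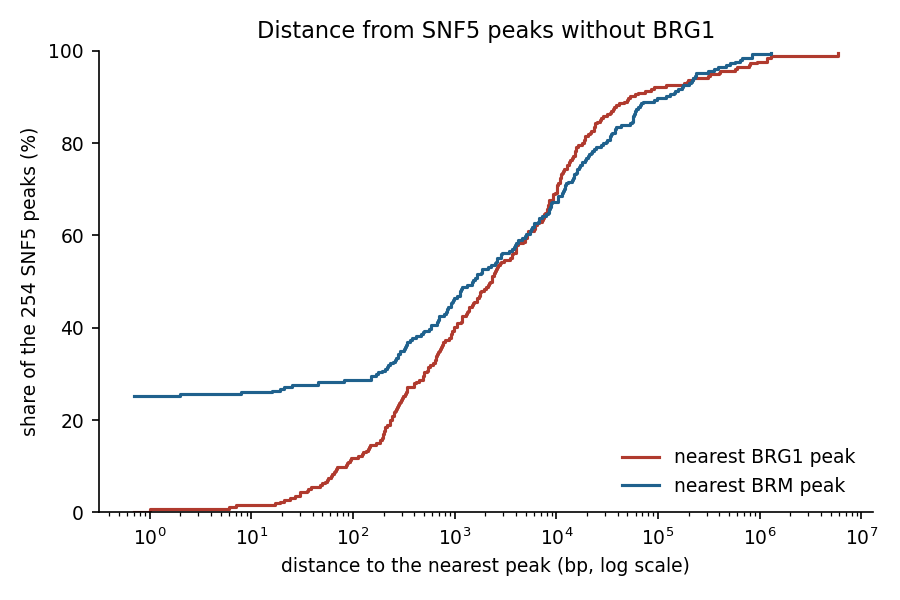
Distance from SNF5 peaks without BRG1 to the nearest BRG1 and BRM peak, as the cumulative share of peaks against distance in bp on a log axis. Of the 254 regions 40.2% lay within 1 kb of a BRG1 peak and 46.5% within 1 kb of a BRM peak, and 25.2% met BRM.

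Further BRG1 peaks lay around most regions. A median of 7 BRG1 peaks (quartiles 2 and 12) lay within 50 kb of a region, and 27 regions (10.6%, 7.12 to 15.1%) had none. Around SNF5 peaks that met BRG1 the median was 6 (quartiles 4 and 10), which counts the overlapping peak itself. The comparison depended on the place. At promoters the medians were 8 (interval 7 to 10) and 6 (6 to 6), but outside promoters 7 (5 to 8) and 10 (9 to 10). Among distal peaks they were 3 (1 to 7) and 9 (9 to 10), while in introns and in exons the intervals overlapped. The gene that a region was named for was also the nearest gene of some BRG1 peak in 198 of 254 cases (78.0%, 72.3 to 82.9%), against 94.2% for SNF5 peaks with BRG1, for which the overlapping peak itself usually supplies the name. The distance depended on the place: 61.4% of the 83 promoter regions, 40.6% of the 32 in exons, 31.4% of the 70 distal ones and 23.2% of the 69 in introns lay within 1 kb of BRG1.

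Regions at the edge of the rule show how narrow the line can be. Just inside it, the peaks named for DNAJC4, a heat shock protein co-factor of the DnaJ family, and HMGB1P1 touched a BRG1 peak end to end (1 bp), and those of AC006483.2, AC011511.5 and HSDL1 lay 6, 7 and 17 bp away. None of these 5 met a BRM peak. Just outside it, the promoter peaks of HES1, a repressor in the Notch pathway, XRCC3, a DNA repair protein, AL136309.2, LLPH and PITPNM1 shared 1, 6, 20, 23 and 24 bp with BRG1. In this outer group 3 peaks, those of HES1, XRCC3 and LLPH, also met BRM.

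BRM lay on 64 of the 254 regions (25.2%, 20 to 31.0%), while 91.9% of all SNF5 peaks and 94.6% (94.0 to 95.2%) of those with BRG1 met BRM. Read the other way, 190 of the 525 SNF5 peaks without BRM (36.2%) also lacked BRG1, as against 64 of the 5964 with BRM (1.07%). The shortage held within each place: BRM was met by 34.9% of promoter, 34.4% of exon, 25.7% of distal and 8.70% of intron regions, against 96.0, 91.5, 88.3 and 86.6% of the SNF5 peaks with BRG1 there. It held in both width classes, with 43.1% against 97.4% among peaks at or above the SNF5 median width and 19.0% against 91.7% below it. With the BRG1 list cut to as many peaks as BRM has, 60.3% of the 726 SNF5 peaks then without BRG1 met BRM. The intervals by place and width do not overlap, but the lists share cells and sites bound by one ATPase are often bound by the other, so no test was made.

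Near BRG1 the regions met BRM more often. Of the 30 within 100 bp of a BRG1 peak 43.3% met BRM, of the 72 from 100 bp to 1 kb 31.9%, of the 74 from 1 to 10 kb 20 did so, and of the 58 from 10 to 100 kb 8.62%. Of the 20 farther out 3 met it. In 23 of the 64 cases (35.9%, 24.3 to 48.9%) the BRM peak itself reached a BRG1 peak, so that SNF5 and BRG1 lay under different parts of 1 BRM peak. In the other 41 the BRM peak met no BRG1 peak either. Regions with BRM were at promoters in 45.3% and in introns in 9.38%, and those without in 28.4 and 33.2%. Their median width was 199 bp with BRM (177 to 223 bp) and 168.5 bp without (161 to 180 bp).

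EGR1, a growth-factor-induced transcription factor, shows the case of a shared BRM peak. Its region (chr5:138468105-138468422, 318 bp, exon, 72.8% along the gene) lay 56 bp past the end of a BRG1 peak of 4352 bp, and a BRM peak of 5080 bp covered both. The FOSB promoter region lay the same way under a BRM peak of 1220 bp, 93 bp from a BRG1 peak. MIR23A, a microRNA, had a region 30 bp from BRG1 under a BRM peak that also reached it. In ULK1 the BRM peak was separate, 567 bp from the nearest BRG1 peak.

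The regions stood away from promoters, unlike the SNF5 list as a whole, of which 81.3% was at promoters (within 1 kb of a transcription start). By the deposited annotation 83 (32.7%, 26.9 to 38.8%) were at promoters, 69 (27.2%) in introns, 32 (12.6%, 8.78 to 17.3%) in exons and 70 (27.6%) distal. Among SNF5 peaks with BRG1 the shares were 83.3, 7.20, 1.89 and 7.65%, and over all SNF5 peaks exons held 2.31%. Put the other way, 1.57% of the 5274 promoter peaks of SNF5 had no BRG1, while 13.3% of 518 intron, 12.8% of 547 distal and 21.3% (15.1 to 28.8%) of 150 exon peaks had none. The median distance to the transcription start was 2554 bp, against 150 bp for peaks with BRG1. The promoter class goes by the nearest annotated start, which can lie well inside a gene. Promoter regions in a RefSeq gene of known strand had a median position 40.5% along it (7.94 to 70.9%, n = 39). For promoter peaks with BRG1 it was 1.49% (1.36 to 1.65%, n = 3481). The share at promoters was lower than that of peaks with BRG1 on 15 of the 15 chromosomes with at least 5 regions. It rose to 59.4% of 726 peaks when the BRG1 list was cut to its widest 22157 peaks, as many as BRM has, and to 53.9% when promoters reached to 3 kb.

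**Figure D2:**
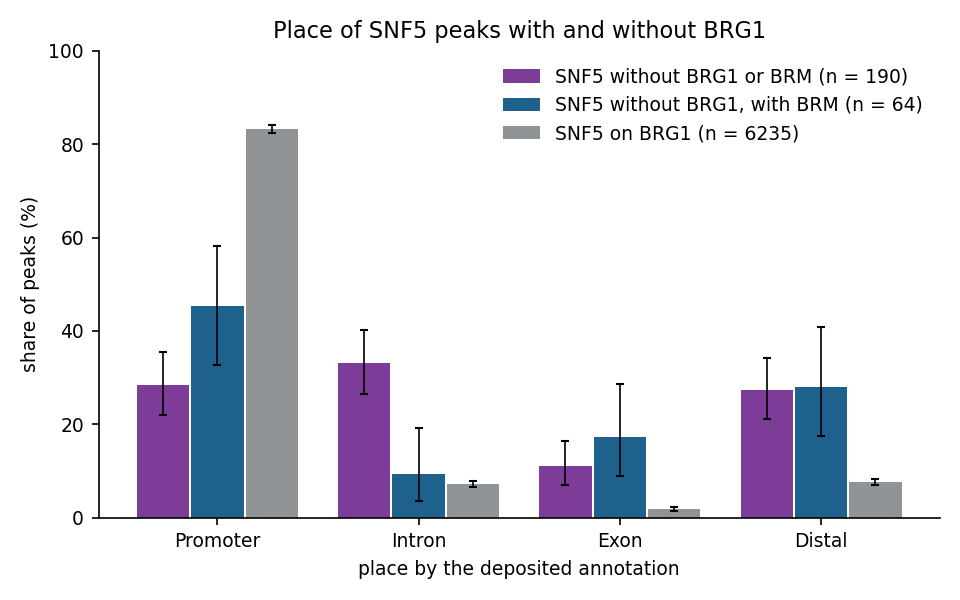
Share of peaks in each annotated place, in percent, for SNF5 peaks without BRG1 (with and without BRM) and SNF5 peaks that met BRG1, with exact 95% intervals as bars. Promoters hold 32.7% of the regions and 83.3% of the peaks with BRG1, exons 12.6 and 1.89%.

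Exons were the place with the largest share of SNF5 peaks without BRG1 in the list. The exon interval overlapped those of intron (10.5 to 16.6%) and distal peaks (10.1 to 15.9%), so the order among these places is not firm. Besides EGR1, exon regions lay in EIF1, a factor that selects the start codon (chr17:41692057-41692297, 87.0% along the gene, 2134 bp from BRG1), and in FOSB (chr19:45473801-45473968, 82.0% along, 3980 bp from BRG1, under a BRM peak). Others lay in RPL27A, a protein of the large ribosomal subunit (65.8% along, 233 bp from BRG1), and PLCB3, a phospholipase (80.2% along, 67 bp). In EIF1 the promoter carried a BRG1 peak of 2050 bp and a BRM peak of 1545 bp, while the SNF5 region near its end met neither.

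Along the gene, the regions outside promoters lay toward the end. For 76 whose surrounding RefSeq gene has a known strand, the median position was 71.6% of the gene's length from its start (62.0 to 77.4%), against 34.0% (29.3 to 39.4%) for 479 SNF5 peaks with BRG1 outside promoters. Past the middle lay 53 of 76 (69.7%, 58.1 to 79.8%) against 180 of 479 (37.6%, 33.2 to 42.1%). The last 20% of the gene held 31.6% of the regions and 16.7% of the peaks with BRG1, and the first 20% held 15.8 and 33.8%. Among intron peaks the medians were 62.0% (47.6 to 74.4%, n = 49) and 29.4% (26.3 to 34.8%, n = 330). Among exon peaks they were 82.0% (71.4 to 93.7%, n = 21) and 74.9% (55.8 to 84.5%, n = 90), whose intervals overlap. The genes were of like length, with medians of 44676 bp (27321 to 60162 bp) and 51023 bp (41122 to 58248 bp).

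**Figure D3:**
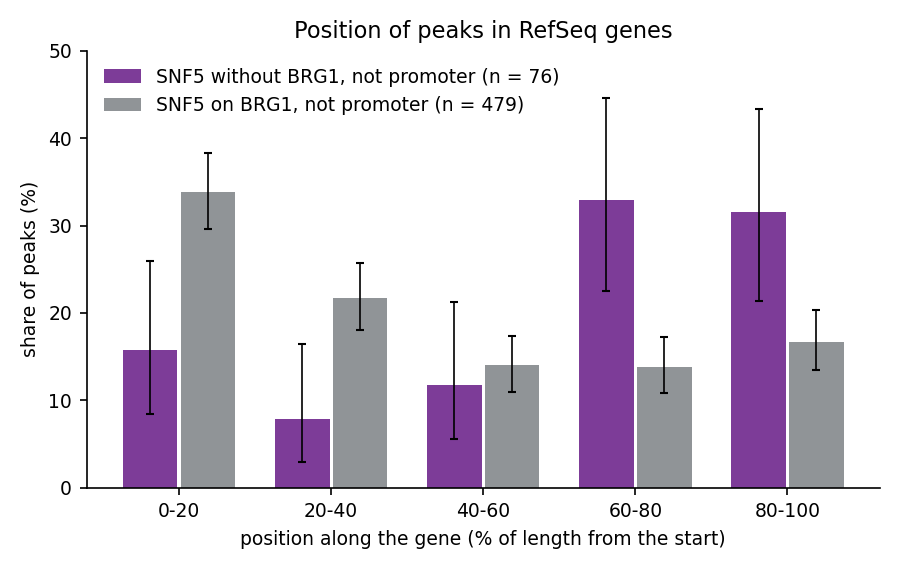
Position of SNF5 peaks outside promoters along the RefSeq gene around them, as the share of peaks in each 20% of the gene from start (0%) to end (100%), with exact 95% intervals. The last 20% holds 31.6% of the 76 regions without BRG1 and 16.7% of the 479 peaks with BRG1.

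For regions outside promoters, the promoter of the gene around them met a BRG1 peak in 60.5% of 76 cases (48.6 to 71.6%). For SNF5 peaks with BRG1 outside promoters it did so in 72.7% of 479 (68.4 to 76.6%), and the intervals overlap.

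The regions were narrow. Their median width was 176.5 bp (167 to 187 bp, quartiles 151 and 213.5 bp, widest 449 bp), against 215 bp (211 to 218 bp) for SNF5 peaks with BRG1. At the narrowest width in the SNF5 list, 151 bp, stood 65 of them (25.6%), against 626 of the 6235 with BRG1. By place, the median widths were 177 and 219 bp at promoters and 156 and 187 bp in introns. In exons (191.5 and 213.5 bp) and among distal peaks (188 and 203 bp) the intervals of the medians overlapped. With the SNF5 list split by width into 5 classes of like number, 7.70% of the 1298 narrowest peaks had no BRG1, and 0.462% of the 1298 widest, that is 6 peaks. Width is tied to the rule, since a wider peak has more bases with which to meet BRG1, and the lists give no other measure of strength. The promoter share was low at either width: 26.2% against 86.0% among wide peaks and 34.9% against 80.4% among narrow ones.

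**Figure D4:**
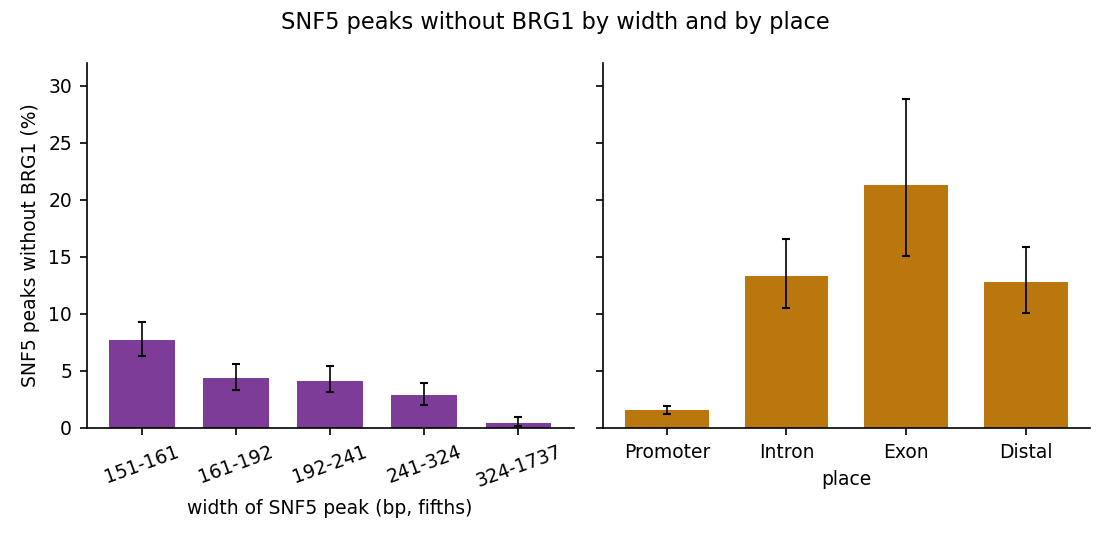
Share of SNF5 peaks without BRG1, in percent, by 5 classes of SNF5 peak width and by annotated place, with exact 95% intervals. The share falls from 7.70% in the narrowest class to 0.462% in the widest, and is 1.57% at promoters and 21.3% in exons.

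Close SNF5 neighbours were fewer, most clearly at promoters and in introns, and in introns the median spacing was wider. Another SNF5 peak lay within 1 kb of 36 of them (14.2%, 10.1 to 19.1%), against 37.7% of the peaks with BRG1. For 22 of the 36 such a neighbour met BRG1. Outside promoters the shares were 12.3% (7.77 to 18.2%) and 29.9%. In introns they were 0 of 69 and 27.4%, and at promoters 18.1% (10.5 to 28.0%) and 39.3%. In exons (18.8 and 39.0%) and among distal peaks (21.4 and 30.0%) the intervals overlapped. Regions with BRM had such a neighbour in 31.2% (20.2 to 44.1%). Over all places the median distance to another SNF5 peak was 17156 bp (12575 to 27037 bp) for the regions and 12615 bp (10808 to 14712 bp) for peaks with BRG1. For regions with BRM it was 5142 bp (1380 to 11712 bp) and for those without 26902 bp (16866 to 39308 bp). Outside promoters it was 18246 bp (12423 to 33976 bp) for the regions and 9208 bp (6918 to 12125 bp) for peaks with BRG1. In introns these medians were 35373 bp (19813 to 63537 bp) and 9785 bp (6625 to 13312 bp). In exons they were 5636 and 1558 bp with overlapping intervals. Among distal peaks the order was reversed, at 7952 and 11098 bp, also with overlapping intervals. At promoters the medians were 16866 bp (8692 to 27201 bp) and 14430 bp (11418 to 17149 bp), whose intervals overlap.

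In all, 7 runs gathered 3 or more regions with at most 100 kb between neighbours. The longest by number was an intergenic stretch on chromosome 16 (chr16:34572932-34595247), named for FP325313.1 from over 200 kb away. In its 22316 bp lay 11 SNF5 peaks, of which 10 had no BRG1, beside 1 BRG1 and 7 BRM peaks. Of the 10, 7 met BRM, and their widths ran from 155 to 396 bp with a median of 281 bp. The other 6 runs held from 7 to 20 BRG1 peaks each.

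NEAT1, the long noncoding RNA on which nuclear paraspeckles form, carried the second run (chr11:65415345-65446854). Of the 9 SNF5 peaks there, 6 had no BRG1 and 5 of these 6 met BRM, among 7 BRG1 and 10 BRM peaks, with distances to BRG1 from 233 to 1835 bp. A pair of neighbouring regions lay in the NEAT1 exon (chr11:65426941-65427151 and chr11:65427440-65427701, 211 and 262 bp), and each met a different BRM peak that reached no BRG1 peak. Another region inside the gene, at 65424415 to 65424601 and named for NEAT1_3, lay 233 bp from BRG1. Another pair, named for the tRNA-like mascRNA-menRNA, lay at 65446105 and 65446704, past the annotated end of NEAT1 at 65445540, and both met BRM.

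LAMA5, which encodes the laminin alpha-5 chain of epithelial basement membranes, was the only one of 30 genes of basal epithelium and basement membrane that a region was named for. Of these 30, 16 were named by some SNF5 peak. It was named by 4, in a run of 5 among 30 SNF5, 20 BRG1 and 35 BRM peaks (chr20:62310888-62440360). Inside the gene, regions stood 96.7, 87.7 and 77.4% of the way along. The last of these, an intron peak of 358 bp (chr20:62322043-62322400), was among the widest, 2607 bp from BRG1 and 1045 bp from BRM. The first met a BRM peak that also reached BRG1.

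The smaller runs lay in stretches dense in BRG1. On chromosome 19, 3 regions annotated as promoter were named for RNU6-2, ABCA7, a lipid transporter, and GPX4, which reduces lipid peroxides. They lay 89, 146 and 196 bp from BRG1, and all 3 met BRM. The GPX4 region stood 929 bp from the nearest annotated start and 85.9% along the gene. On chromosome 9 a pair named for MIR4669 lay inside RXRA, a nuclear receptor gene with 35 BRG1 peaks on it, and made a run with AL669970.1. The other runs were LINC01451 with EGFL7 on chromosome 9 and MACROD1 with DNAJC4 and PLCB3 on chromosome 11, and none of their 6 regions met BRM.

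One region lay in an exon of SCHLAP1, the gene the cells were made to express, and was singled out after its values were seen. The peak (chr2:180827235-180827457, 223 bp, named for AC104820.1) met a BRM peak (chr2:180827186-180827599) that was the only BRM peak on the gene. The nearest BRG1 peak was 45859 bp away, among 4 on the 224836 bp of the gene, of which 1 was annotated to an exon. The only other SNF5 peak on SCHLAP1 was also annotated to an exon (chr2:180916784-180916934) and met that exonic BRG1 peak of 331 bp. The cells carry SCHLAP1 in the lentiviral construct as well as at its own locus, and with positions alone DNA of the construct and of the locus cannot be told apart.

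In all, 20 regions lay over 100 kb from any BRG1 peak or on a chromosome without one. Of these 14 were distal, 15 lay in no RefSeq gene and 3 met BRM. The farthest 2 lay on the short arm of chromosome 21, named for RNA5-8SN5, a copy of the 5.8S ribosomal RNA gene (chr21:8219860-8220149, 290 bp, 5837457 bp from BRG1), and for MIR6724-2 (chr21:8234398-8234631, 5822975 bp). The first met a BRM peak of 633 bp. The next were SNX18P25 on chromosome 4 (1286131 bp), a pair named for the 7SL pseudogene RN7SL584P on chromosome 15 (1169763 and 1165883 bp) and AC026495.1 (931800 bp, with BRM 16 bp away). A pair on chromosome 5 named for EMB lay 793460 and 792314 bp from BRG1, and AC069061.1 and AC023141.13 followed at 603053 and 565089 bp.

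Some of these places lay far from the start they were named for, as SNX18P25 did at 967430 bp. Others lay near it, as AC026495.1 did at 4333 bp. The widest region of all, 449 bp, was 1 of the far ones. It was named for the U6 pseudogene RNU6-488P on chromosome 3 (chr3:93470360-93470808) from 373177 bp away, lay 407639 bp from BRG1 and met BRM over its whole length. A pair on chromosome 1, named for AL669831.3 and for MTATP6P1, a nuclear copy of a mitochondrial gene, had widths of 253 and 267 bp and stood 195737 and 193079 bp from BRG1. RNA5-8SN5, MTATP6P1 and U1 belong to sequences present in more than 1 copy. How reads that fit several copies were placed is a step the sources used here do not state, and its part in these peaks was not tested.

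Some regions carried the names of small nuclear RNAs, the RNA parts of the spliceosome and related particles, or of the small nucleolar RNA U8. Counting RNU, U1, U2 and U8 names, a class formed after the names were seen, 13 regions (5.12%, 2.75 to 8.59%) were named for one, against 30 of 6235 SNF5 peaks with BRG1 (0.481%). The name is that of the nearest start: 5 of the 13 and 13 of the 30 lay within 1 kb of it, and the rest of the 13 from 1916 to 373177 bp away, so most are not peaks at such a gene. Of the 13, 3 were named for U1 on chromosome 1, at 8433, 74195 and 119567 bp from BRG1, and 1 at the promoter of U2 on chromosome 17 (chr17:43251580-43251831, 252 bp), which met BRM 19020 bp from BRG1. RNU5E-1 had a promoter region 493 bp from BRG1.

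MicroRNA names stood on 10 regions (3.94%, 1.90 to 7.12%), against 0.930% of peaks with BRG1. These names too are those of the nearest start. The MIR4669 pair lay 5169 and 25003 bp from it and the MIR6724-2 region 14988 bp. MIR21, a microRNA often raised in tumours, was named by a distal region 719 bp from BRG1 that met BRM, and MIR4673 by one inside NOTCH1, a receptor gene, 126 bp from BRG1. Clone-based names such as AC011511.5, mostly of little-known transcripts, stood on 49 (19.3%, 14.6 to 24.7%), against 8.40%. Promoters held 32.7% of the regions and 83.3% of peaks with BRG1, and the name classes were not compared within a place. Zinc finger genes (4 regions), ribosomal protein genes and their pseudogenes (4), LINC genes (6) and antisense genes (3) were named at shares whose intervals overlapped those of peaks with BRG1. No region had the name of a mitochondrial ribosomal protein gene or a name beginning with SNOR or SNHG (small nucleolar RNAs and their hosts). This allows up to 1.44%, against 0.465 and 0.385% of peaks with BRG1. The small nucleolar RNA U8, counted above, has no such symbol.

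Over all genes, 226 of the 4879 named by an SNF5 peak (4.63%) were named by a region, so that few are to be looked for in any short list. Of 12 gene lists chosen for these cells, 4 had such a gene. They were LAMA5 among 30 basal genes, 16 of them named by an SNF5 peak, and FOSB among 15 AP-1 genes, 10 so named. EIF1 and the elongation factor EEF2 were among 25 translation factors, 16 so named. The chaperone HSPA1A was among 27 heat shock and chaperone genes, 18 so named. The EEF2 region (chr19:3986691-3986888) lay 923 bp from BRG1 and 945 bp from BRM, and the HSPA1A promoter region (chr6:31815564-31815719) 183 and 176 bp. None of the 31 SWI/SNF subunit genes was named by a region, while 6 were named by some SNF5 peak and 28 by BRG1. The lists of p53 targets, cell cycle and licensing, YAP/TEAD, splicing, proteasome and ubiquitin, luminal prostate, and liver, blood and stroma also had none, of 10, 10, 11, 21, 12, 3 and 0 genes named by an SNF5 peak. Next to the share over all genes these zeros say little, and so do the 1 or 2 genes of the other lists. Of the 226 genes, 210 were named once.

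Of the promoter regions, 3 in 4 lay within 6314 bp of BRG1. Beyond that, ZNF773, a zinc finger gene, had one 38 bp from its start that met a BRM peak and lay 27221 bp from BRG1. GFRA3, a receptor of the GDNF family, DHDH, a dehydrogenase, and EPB41L1, a membrane skeleton protein, had promoter regions 31705, 20669 and 28883 bp from BRG1, each without BRM.

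The peak numbers bear on some of these. BRG1 peaks are numbered along the chromosomes and 90 numbers are absent from the list, as where a peak was numbered and then not kept. Absent numbers fall in 50 of 51481 gaps between neighbouring BRG1 peaks (0.0971%), which hold 1.31% of the sequence between peaks. Of the 246 regions with a BRG1 peak on either side, 14 (5.69%, 3.15 to 9.36%) lay in such a gap. Of the 14, 9 belong to the FP325313.1 run. The other 5 included the promoter regions of EED, a subunit of Polycomb repressive complex 2 (chr11:86244984-86245211, 40 bp from the start), ETV3, an ETS-family repressor (chr1:157138199-157138375, 45 bp), and LENG1 (chr19:54159402-54159711, 310 bp wide). They also included regions annotated as intron and named for TFEB, a regulator of lysosomal genes, and for U1. The U1 start lay 8379 bp from its region, which stood in the pseudogene PDE4DIPP4. What an absent number stood for, and where in the gap, is not recorded, so whether it covered the region was not tested.

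By chromosome, among those with at least 50 SNF5 peaks, the share without BRG1 was highest on 21 (5 of 65, 7.69%), 19 (29 of 399, 7.27%, 4.92 to 10.3%), 16 (19 of 269, 7.06%), 20 (28 of 432, 6.48%) and 9 (28 of 459, 6.10%). It was lowest on 4 (1 of 154, 0.649%), 3 (2 of 195, 1.03%) and 2 (6 of 415, 1.45%, 0.532 to 3.12%). The SNF5 list covers the chromosomes unevenly: it held 2 peaks on chromosome 22, where BRG1 had 316, and none on X. The places differed as well: on chromosome 19 promoters made up 65.5% of the regions and on chromosome 9 10.7%. On chromosome 16 the FP325313.1 run supplied 10 of the 19.

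**Figure D5:**
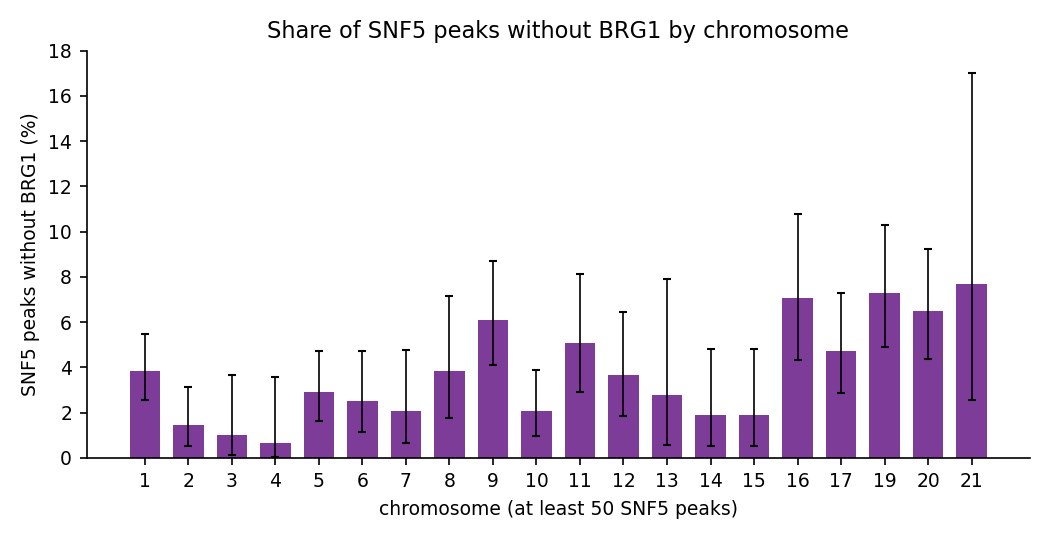
Share of SNF5 peaks without BRG1 on each chromosome with at least 50 SNF5 peaks, in percent, with exact 95% intervals. Chromosomes 19, 20 and 9 stand at 7.27, 6.48 and 6.10%, chromosomes 2 and 3 at 1.45 and 1.03%.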

How the data were processed

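Chromatin immunoprecipitation with sequencing was done on MNase-cut chromatin of RWPE1 cells with lentiviral SCHLAP1, after fixation in 0.3% formaldehyde (30 min) stopped by 125 mM glycine, per the labels' protocols. Per the submitters' processing notes, the tools were Bowtie2, SAMtools, MACS2 and deepTools 2.5.2, on hg38; these notes give no roles. For thresholds, the filter, the input and any pooling of replicates, the sources used here state nothing. The deposited lists, 1 per subunit, give each peak's start, end, width and distance to the nearest transcription start in bp, its place and nearest gene, per the file headers, and no score or count, so depth is unknown. What part depth or filter had in an absent BRG1 peak was not tested. The narrowest peaks were 151 (SNF5), 331 (BRG1) and 310 bp (BRM).

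Overlaps of 1 bp and distances were computed with Python 3.11.15, numpy 2.4.6 and pandas 2.3.3, and exact Clopper-Pearson 95% intervals with scipy 1.17.1; intervals of medians come from order statistics. Both cover counting error only and treat neighbouring peaks as independent, which they are not. The routine found 1000 of 1000 simulated peaks rightly and gave the same call as bedtools 2.31.1 for 6489 of 6489 SNF5 peaks. RefSeq genes of GRCh38.p14 supplied gene bodies and promoters.

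Named were the 10 regions farthest from BRG1, the 10 widest, the 10 widest with BRM, 5 just inside and 5 just outside the rule, runs of 3 or more within 100 kb, genes of the lists, genes named by 3 or more, regions off the numbered chromosomes, and 6 promoters for sequence. Some that this takes are summarised or not reported here, and the exon, far promoter, small RNA, gap and SCHLAP1 examples were chosen after their values were seen. The regions and lists were chosen with earlier results of these data known. The samples of histone marks and inputs are not used here.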

Additional observations from a re-analysis of the deposited data

How the results depend on the processing

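Of 114 values under 18 alternatives 39 moved and 75 did not, staying within their 95% interval or, for the number of regions, within 1.5 times, and under no rule of overlap that kept the BRG1 list whole did the promoter share pass 39.7%. With BRG1 peaks up to 100 bp away counted as overlap, the share without BRG1 was 3.45%, and 32.1% of these lay within 1 kb of BRG1. With 1 kb it was 152 peaks or 2.34%, of which 18.4% met BRM, 21.1% were at promoters, 0% lay within 1 kb and 66.4% had a gene named by BRG1, at median distances of 10057 bp to BRG1 and 8962 bp to BRM. The lower shares within 1 kb of BRG1 under both rules, and the longer distance to BRG1, follow from the rules themselves. Asking that the middle of the SNF5 peak lie in a BRG1 peak gave 4.62%, with 32.7% on BRM, 39.7% at promoters, 49.3% within 1 kb, and medians of 1057 and 706 bp. SNF5 peaks at or above the median width gave 65 peaks or 2.00%, with 43.1% on BRM, 26.2% at promoters, a median width of 253 bp and 317 bp to BRM. Narrower ones gave 5.84%, with 19.0% on BRM and 160 bp.

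With the BRG1 list cut to its widest 22157 peaks, the number BRM has, the count rose to 726 peaks or 11.2%, with 60.3% on BRM, 59.4% at promoters, 21.1% within 1 kb, 45.7% with a gene named by BRG1, a width of 188 bp and medians of 9875 bp to BRG1 and 0 bp to BRM. The list is shorter by construction. Promoters within 500 bp or 3 kb held 24.4 or 53.9%, BRM within 1 kb 46.5%, and BRG1 within 500 bp or 5 kb 30.3 or 59.4%. The remaining alternatives moved none: BRM within 100 bp, chromosomes 1 to 22, X and Y only, merging SNF5 peaks within 500 bp, leaving out chromosome 19, and 3 chosen after seeing the data, without regions next to an absent BRG1 number, without FP325313.1 and without peaks over 100 kb from BRG1. Not run were promoters by start position, since the lists give none, and leaving out a replicate. No paired analysis was possible because each subunit has 1 list that names no replicate, and no result comes from a test.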
